A study of Mus musculus with 18 samples.

Results

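Glycolysis turns glucose into pyruvate in the cytosol through 10 enzymatic steps, and 1 mouse gene was followed for each step. The 10 genes were, in pathway order, Hk2, Gpi1, Pfkl, Aldoa, Tpi1, Gapdh, Pgk1, Pgam1, Eno1 and Pkm. They were listed by name, as 1 gene for each step, with no threshold on a measured value, although earlier results of these data were known when the list was made. Each symbol was matched to its Ensembl gene identifier. All 10 were among the 51467 genes in the count table, and their positions are given on GRCm38. Of these, 9 passed the filter on low counts, against 12705 genes in all, and Pgam1 did not. In Ddx6 KO cells, the ratio of high polysome to monosome was called higher for 4 of the 9, Hk2, Gpi1, Pfkl and Pkm. Over all genes 10.7% were called higher and 7.09% lower. Once the trend of this change on coding length was removed, only Gpi1 and Pkm were still called, and without KO gradient 3 only Hk2. Hk2 and Tpi1 mRNA rose over the 3 fractions, and Aldoa mRNA fell, where 28.5% of all genes were called in each direction.

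The first enzymes of the pathway spend ATP to phosphorylate glucose and split it into triose phosphates, and the later ones recover ATP and NADH on the way to pyruvate. Hexokinase, phosphofructokinase and pyruvate kinase catalyse the steps that are in practice irreversible and are the main points of control. Pluripotent stem cells are known for a high glycolytic flux, and DDX6 is an RNA helicase known from the decay of mRNAs and from the repression of their translation.

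The cells were mouse embryonic stem cells (ESCs) of the V6.5 line. They were wild type (WT) or had lost Ddx6 through CRISPR-Cas9 editing (KO). Both genotypes were grown in medium with serum, LIF and 2i (PD0325901 and CHIR99021) and briefly treated with cycloheximide, which holds ribosomes on mRNA. Each of 6 sucrose gradients, 3 per genotype, gave a monosome fraction, a low polysome fraction (2 to 4 ribosomes) and a high polysome fraction (4 or more ribosomes), so that 18 libraries fell into 6 groups of 3. KO gradient 1 came from 1 knockout clone, and KO gradients 2 and 3 came from a second clone, so that the KO group held only 2 independent lines. Nothing in the labels says that the WT gradients came from separate cultures, and the p-values then measure the spread between these gradients, which may be partly technical.

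Libraries counted the 3′ ends of mRNAs with QuantSeq, which yields about 1 tag per molecule whatever its length, so that levels in CPM (counts relative to the TMM-scaled library total) were compared between genes without division by length. Because reads that aligned to more than 1 place in the genome had been discarded, a gene whose 3′ end is repeated elsewhere is undercounted. Gapdh, among the best known of abundant mRNAs, had only 343 counts over the 18 libraries, with 7 to 41 in each. Its annotated copies, 264 pseudogenes and retrocopies, held 4623 counts, so that 93.1% of the counts of Gapdh and its copies were assigned to copies. Of the 251 windows of 50 bases in the last 300 bases of the Gapdh transcript, 208 (82.9%) occurred exactly in a transcript of another gene, and 96 copies shared at least 1 of them. The read length was 50 bases.

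The copy with the most counts was Gm5787, a processed pseudogene on mouse chromosome 8 (GRCm38, minus strand), at chr8:36372596-36373633. It held 600 counts, more than Gapdh itself. The last 100 coding bases of Gapdh are shown beside the matching stretch of Gm5787, both from the Gencode transcripts, since both share a run longer than a read in this stretch; capitals mark the 1 position at which they differ.
Gapdh: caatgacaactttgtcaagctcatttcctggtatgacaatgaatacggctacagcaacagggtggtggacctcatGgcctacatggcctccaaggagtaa
Gm5787: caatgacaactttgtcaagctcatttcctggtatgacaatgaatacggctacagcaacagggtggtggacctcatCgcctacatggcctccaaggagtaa
The longest run in common within it was 75 bases. A read within that run could not be assigned to either. Elsewhere the transcripts differed more, with 92.2% identity over 1040 aligned bases and 45 of the 251 windows in common.

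Eno1 shared 226 of its 251 windows (90.0%) with Eno1b, an intronless gene 99.5% identical to it over 1736 aligned bases. Eno1 had 6198 counts and Eno1b 69. Aldoa shared 6 windows (2.39%) with another gene, and the other 7 members shared none. Over all coding genes, 1293 of 21738 (5.95%) shared more than 50% of their windows. Pgk1 (549 counts) and Pgam1 (167 counts) also stood low. None of their windows was shared with another annotated transcript, and their 4 and 3 annotated copies held 0 and 1 counts. However, copies of Pgk1 were 100% identical to it over 1252 and 1255 aligned bases, and a copy of Pgam1 over 765. Reads within such stretches could not be assigned, so that the counts in copies do not measure the reads lost. What lowered Pgk1 and Pgam1 was not tested. The remaining members had 4564 (Pfkl) to 84871 (Aldoa) counts, and at most 0.157% of the counts of any of these genes and its copies lay in copies.

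**Figure D1:**
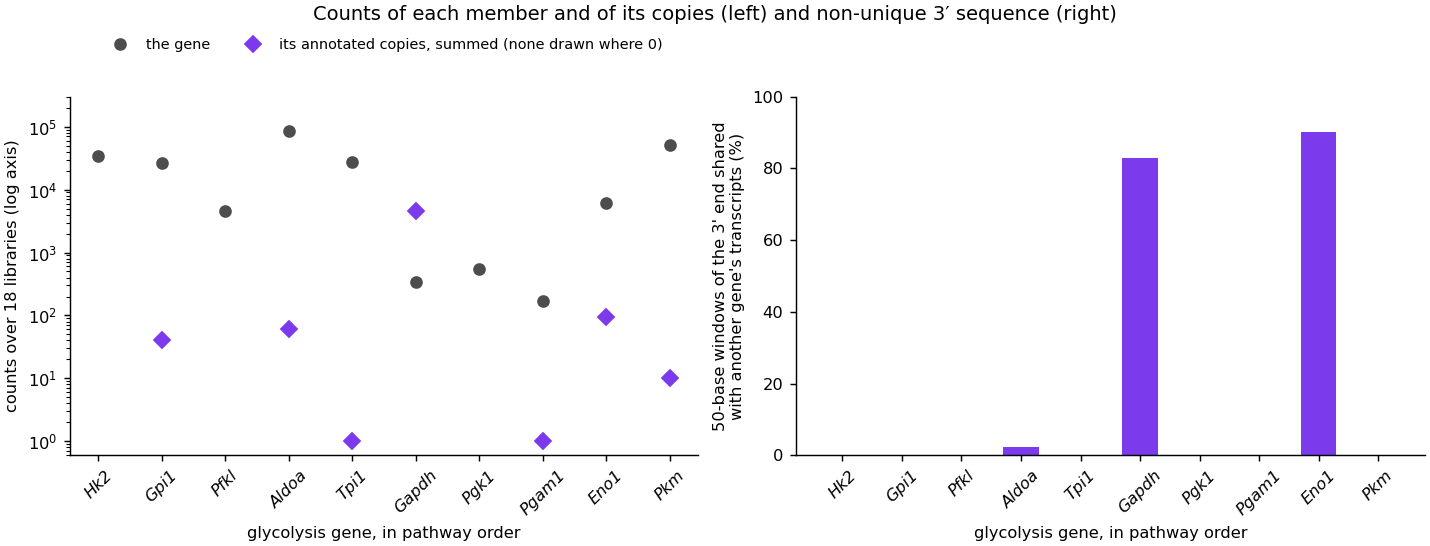
The left plot gives the counts summed over the 18 libraries (log axis) for each of the 10 genes and for its annotated copies, and the right plot gives the percentage of 50-base windows in the last 300 bases of the transcript that another gene's transcripts share. Gapdh is the only member with more counts in its copies (4623) than in the gene (343), and Gapdh and Eno1 are the members with mostly shared 3′ ends.

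Library totals ran from 2543617 to 11474550 counts, and the WT monosome libraries were the shallowest (2543617 to 4894677), below every KO monosome library (7537656 to 7811071). The part of this gap in depth in the monosome differences was not tested. Ddx6 mRNA was 143 to 212 CPM in the WT libraries and 9.68 to 82.7 CPM in the KO libraries. It fell by 2.74 on the log2 scale (SE 0.37, limma adjusted p = 3.82e-05) over the 3 fractions, and it was higher in the clone of KO gradient 1 (55.3 to 82.7 CPM) than in that of gradients 2 and 3 (9.68 to 26.7 CPM). The edit lay within the coding part of the gene and differed between the clones, so that the level of a 3′ tag is no test of the protein. All 10 naive and core ESC markers passed the filter, with a summed level of 2450 to 5883 CPM in WT and 2585 to 4365 CPM in KO. In abundance 2 of them were called higher and 3 lower in KO (median -0.20), against 28.5% of all genes in each direction. The fibroblast markers summed to 4.65 to 10.7 CPM in WT and 5.79 to 11.1 CPM in KO, with Col3a1 at 0 throughout, the primitive endoderm markers to at most 9.80 CPM and the mesoderm markers to 4.29 to 9.23 CPM in WT and 6.38 to 17.6 CPM in KO. The primed epiblast markers summed to 108 to 156 CPM in WT and 65.9 to 141 CPM in KO, with Fgf5 at 0. Of the 4 primed markers tested, Otx2, Dnmt3b and Pou3f1 were lower in abundance (log2 differences of -2.52, -1.06 and -0.72) and Sox4 was higher (2.30) in KO (limma adjusted p at most 0.000566). Of the markers of other cell types, 2 of 7 fibroblast, 0 of 5 primitive endoderm, 2 of 4 mesoderm and 4 of 5 primed epiblast genes passed the filter, and their part in the results was not tested. The low polysome libraries of WT gradient 3 and KO gradient 2 stood apart from their groups, and their deviations from the group means correlated with each other (r = 0.54 across genes, which are not independent replicates). Results that use the low polysome were therefore also computed without these 2 libraries, an alternative chosen after the data had been seen.

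Levels were first compared among the members, as counted from reads with 1 alignment. Gapdh and Eno1 have mostly shared 3′ ends, and their places in the order may therefore be too low, which was not tested. Pgk1 and Pgam1 have copies identical to them over long stretches, but no shared window at their 3′ ends. Whether their places are too low was not tested either. Averaged over the fractions on the log2 CPM scale, the order in WT cells was Aldoa (9.30 ± 0.11, SD, n = 3 gradients), Pkm (8.39 ± 0.13), Gpi1 (7.55 ± 0.20), Hk2 (7.44 ± 0.07), Tpi1 (6.51 ± 0.20), Eno1 (4.89 ± 0.42), Pfkl (4.71 ± 0.14), Pgk1 (1.89 ± 0.23), Gapdh (1.29 ± 0.28) and Pgam1 (0.69 ± 0.10). The gradients of Gpi1 and Hk2 overlapped, as did those of Eno1 and Pfkl, while the other neighbours in the order did not overlap. In KO cells Hk2 (8.14 ± 0.10) and Tpi1 (7.76 ± 0.04) stood above Gpi1 (7.46 ± 0.07). The gradients of Hk2 then overlapped those of Pkm (8.33 ± 0.14), and Aldoa (8.79 ± 0.16) was still the most abundant. Aldoa was above 98.6% of the tested genes in WT cells and Pkm above 95.8%, whereas Gapdh, as counted, was above 4.46%. Together the 10 genes, as counted, took 0.191% to 0.236% of the counts in WT high polysome libraries and 0.227% to 0.269% in KO high polysome libraries, against 0.130% to 0.156% and 0.100% to 0.118% in the monosome. In the low polysome they took 0.0980% to 0.115% in WT and 0.116% to 0.143% in KO.

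**Figure D2:**
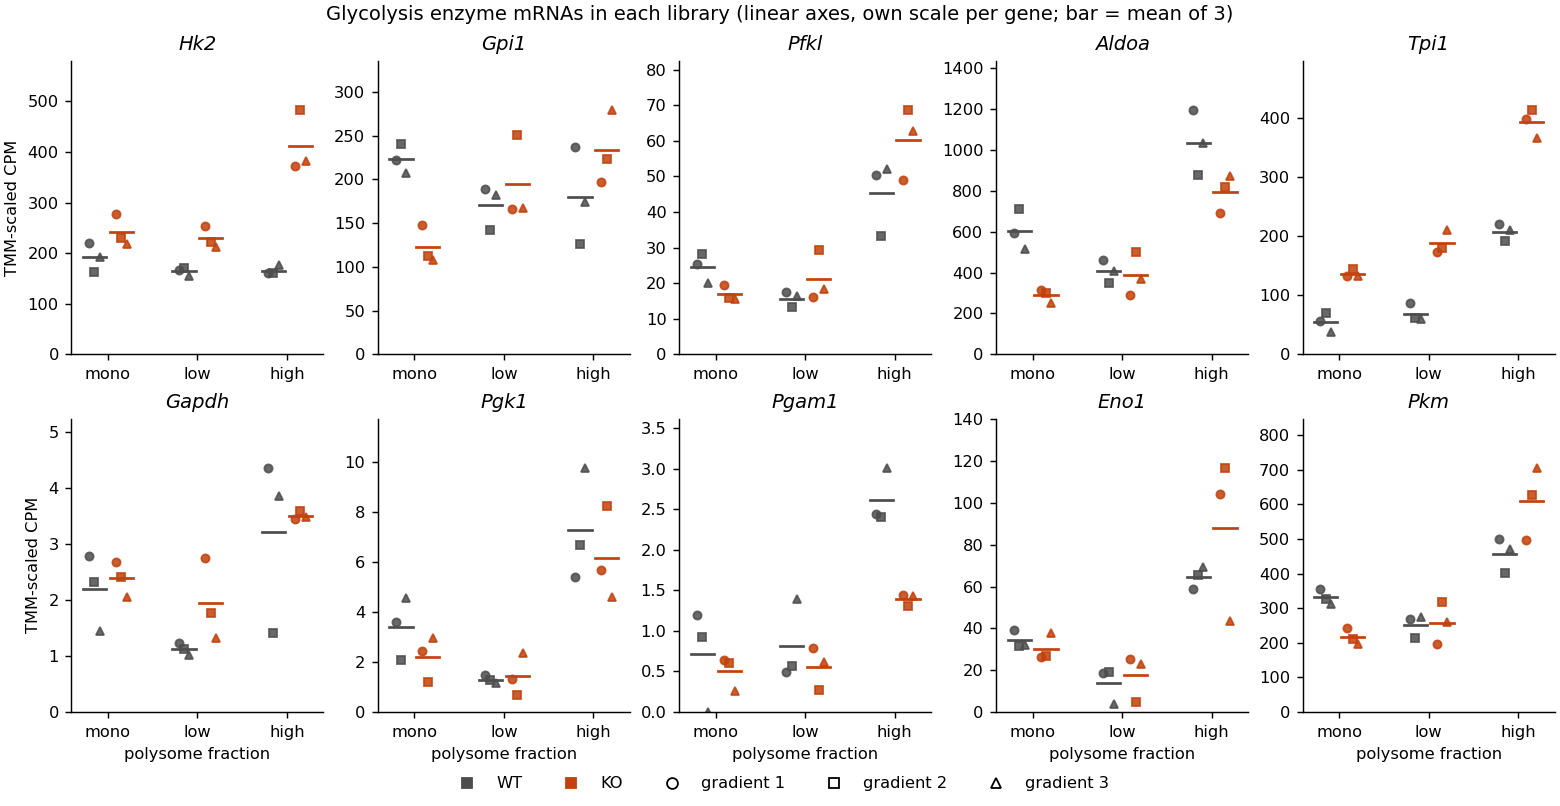
Each panel gives the TMM-scaled CPM of 1 gene in each of the 3 fractions (linear axis from 0, its own scale for each gene), with a point for each gradient (circle, square and triangle for gradients 1, 2 and 3), a bar for the mean of 3, WT in grey and KO in orange. Tpi1 lies higher in KO than in WT in every fraction, and Gpi1, Aldoa and Pkm lie lower in KO in the monosome.

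The question of the polysome comparison was whether loss of DDX6 changes how heavily an mRNA is loaded with ribosomes. The translation level is the ratio of high polysome to monosome, on a log2 scale. The ratio compares 2 libraries, each scaled to its own total, and is therefore relative to the other mRNAs. In WT cells 5 of the 9 tested members were called higher in the high polysome (Pfkl, Aldoa, Tpi1, Pgk1 and Pkm) and none lower, where 28.9% of all genes were called higher and 32.2% lower in limma at an adjusted p under 0.05. The WT values were 1.98 for Tpi1 (limma adjusted p = 7.88e-09), 1.10 for Pgk1 (0.0257), 0.87 for Pfkl (0.00308), 0.77 for Aldoa (0.000692) and 0.46 for Pkm (0.0185). In KO cells 8 of 9 were called higher, against 35% of all genes higher and 33.6% lower, and Gapdh was the exception. Gapdh passed the filter only through high polysome libraries, so that the filter favoured a ratio above 0 for it. Pgk1 reached the level the filter asks for in all 6 high polysome libraries but in few others, all of them monosome libraries. The filter may therefore have favoured such a ratio for Pgk1 as well. Without these 2 genes the calls were 4 of 7 in WT and 7 of 7 in KO. The median of the 9 was 0.77 in WT and 1.46 in KO, against -0.02 and 0.03 over all genes. The 5 WT calls fell to 2 (Aldoa and Tpi1) without WT gradient 3, and that of Pgk1 was also lost without WT gradient 2. In KO the call of Pgk1 was lost without KO gradient 2 and that of Eno1 without KO gradient 1.

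The effect of the knockout on this ratio was tested as an interaction between genotype and fraction. It was called for 4 of the 9 members, Hk2, Gpi1, Pfkl and Pkm, all higher in KO. Over all genes 10.7% were called higher and 7.09% lower. The median change of the 9 members was 0.69, against 0.02 over all genes, and it was positive for 8. The calls numbered 1 (Hk2) without KO gradient 3, and 2 (Gpi1 and Pkm) once the trend of the change on coding length was removed.

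**Figure D3:**
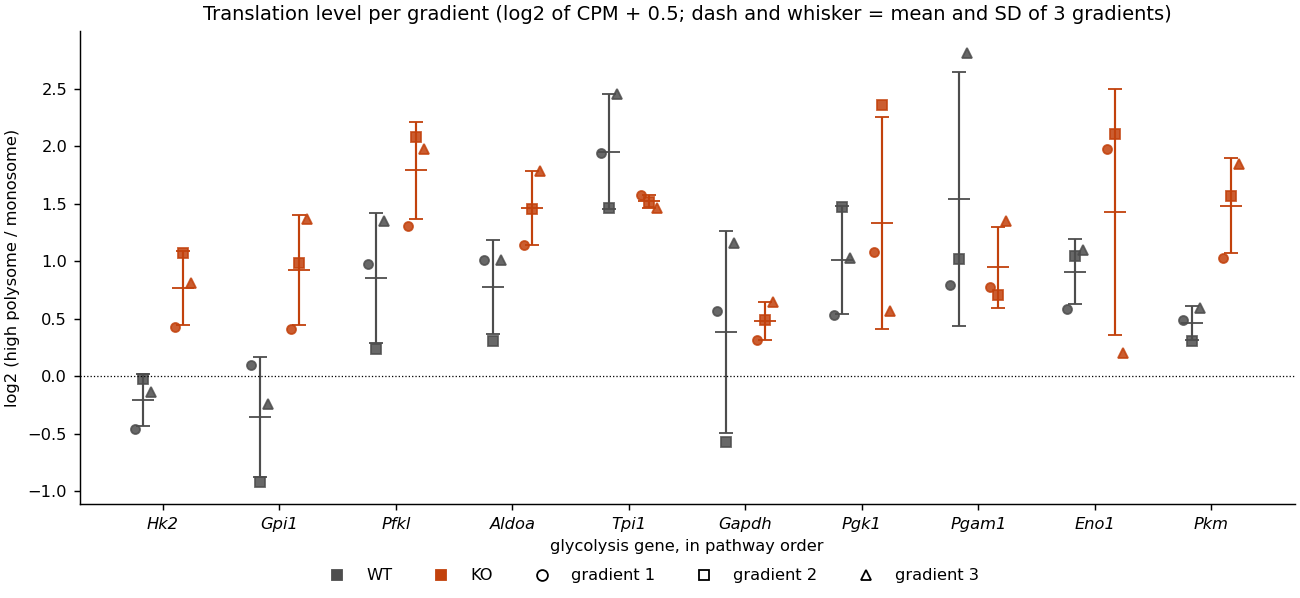
Points give the log2 ratio of high polysome to monosome in each gradient (CPM with 0.5 added) for the 10 genes in pathway order, with WT in grey and KO in orange, and a dash and whisker for the mean and SD of 3 gradients. The KO gradients of Hk2, Gpi1, Aldoa and Pkm lie above all of their WT gradients, and Tpi1 starts from a WT mean of 1.95.

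Hk2 (chr6:82725025-82774454, minus strand) encodes hexokinase 2, which traps glucose in the cell by phosphorylating it. Its log2 ratio of high polysome to monosome was -0.46, -0.02 and -0.14 in WT gradients 1 to 3, and 0.43, 1.07 and 0.81 in KO gradients 1 to 3. Every KO gradient lay above every WT gradient. Such a separation upwards was found for 4 of the 9 tested members (Hk2, Gpi1, Aldoa and Pkm) and for 21.2% of all genes, while 17.8% of all genes separated downwards. The fitted change was 0.97 (SE 0.19, limma adjusted p = 0.00229), or 1.96-fold. Hk2 was also more abundant. It stood at 160, 161 and 176 CPM in the WT high polysome and at 373, 483 and 382 CPM in the KO high polysome, a rise of 1.31 on the log2 scale (SE 0.13, limma adjusted p = 1.55e-07). In the low polysome it was 166, 170.1 and 155 CPM in WT and 254, 222 and 212 CPM in KO, and it rose by 0.48 (SE 0.13, limma adjusted p = 0.00558). In the monosome the WT libraries held 221, 164 and 193 CPM and the KO libraries 277, 230 and 218 CPM. These 2 sets overlapped, and the difference of 0.34 was not called (SE 0.14, limma adjusted p = 0.0551). It was called with library size alone, without the filter and with the monosome groups fitted alone (limma adjusted p = 0.0267, 0.0239 and 0.0278), and also without WT gradient 1 (limma adjusted p = 0.0364).

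Gpi1 (chr7:34201330-34230336, minus strand) encodes glucose phosphate isomerase, which makes fructose phosphate from glucose phosphate. Its log2 ratio of high polysome to monosome was 0.10, -0.93 and -0.24 in WT and 0.41, 0.99 and 1.37 in KO, again without overlap. The change of 1.29 (SE 0.29, limma adjusted p = 0.00506), or 2.44-fold, was the largest among the members. It came with a fall in the monosome, from 222, 240 and 207 CPM in WT to 148, 113 and 108 CPM in KO. The monosome level fell by 0.87 on the log2 scale (SE 0.21, limma adjusted p = 0.00223). In the high polysome, 237, 126 and 175 CPM in WT and 197, 223 and 279 CPM in KO overlapped, and the difference of 0.41 was not called (SE 0.20, limma adjusted p = 0.0982). That difference was called without WT gradient 1 (limma adjusted p = 0.0362). The low polysome level was 189, 142 and 182 CPM in WT and 167, 250.3 and 167 CPM in KO, overlapping likewise (difference 0.17, limma adjusted p = 0.518). The abundance over the 3 fractions differed by -0.10 (SE 0.10, limma adjusted p = 0.437). Without KO gradient 3 the change in ratio was 1.05 and was not called (limma adjusted p = 0.0574).

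Pfkl (chr10:77986947-78009807, minus strand) encodes the liver-type subunit of phosphofructokinase, the committed step of the pathway. It was much less abundant than Hk2 or Gpi1. Its ratio was 0.97, 0.24 and 1.35 in WT and 1.31, 2.08 and 1.97 in KO, so that KO gradient 1 fell within the WT range. The change of 0.95 (SE 0.32, limma adjusted p = 0.0454) lay close to the threshold. It was not called without WT gradient 1, WT gradient 2, KO gradient 2 or KO gradient 3, with library size alone as the scaling or without the filter, and over the gradients left out it ranged from 0.61 to 1.23. Pfkl rested on 64 to 153 counts in each monosome library. Its monosome level was 25.5, 28.1 and 20.1 CPM in WT and 19.5, 15.8 and 15.6 CPM in KO. Its high polysome level was 50.4, 33.2 and 52.1 CPM in WT and 49.1, 68.7 and 62.9 CPM in KO. Neither fraction on its own was called (limma adjusted p = 0.121 and 0.0668), although every KO value in the monosome was below every WT value. The monosome difference was called with these groups fitted alone (-0.49, limma adjusted p = 0.0362). The high polysome difference was called without WT gradient 3 or KO gradient 1 (limma adjusted p = 0.0443 and 0.0226).

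Aldoa (chr7:126795234-126808875, minus strand) encodes aldolase A, which splits the sugar bisphosphate into triose phosphates. Its ratio was 1.01, 0.30 and 1.01 in WT and 1.14, 1.45 and 1.78 in KO. The gradients did not overlap, yet the change of 0.69 missed the threshold (SE 0.25, limma adjusted p = 0.0593). It was called with the gradient as a replicate block, a fit that pairs the fractions of each gradient (limma adjusted p = 0.0494), and over all alternatives the adjusted p ran from 0.0199 to 0.293. Unlike Gpi1, Aldoa was less abundant in KO cells. The monosome level was 593, 710 and 515 CPM in WT and 314, 299 and 254 CPM in KO, and it fell by 1.06 on the log2 scale (SE 0.18, limma adjusted p = 9.17e-05). The high polysome level was 1196, 877 and 1034 CPM in WT and 694, 817 and 875 CPM in KO, a difference of -0.38 that was not called (SE 0.17, limma adjusted p = 0.0808). Every KO value in the high polysome was below every WT value. The low polysome level was 461, 349.5 and 408 CPM in WT and 289, 501 and 369 CPM in KO, and these sets overlapped (difference -0.10, limma adjusted p = 0.674). The high polysome difference was called with library size alone (limma adjusted p = 0.0263), with DESeq2 (adjusted p = 0.0342), without the filter (limma adjusted p = 0.0490), with these groups fitted alone (limma adjusted p = 0.0368) and without WT gradient 2 (limma adjusted p = 0.0455).

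Tpi1 (chr6:124810586-124814296, minus strand) encodes triose phosphate isomerase, which makes both triose phosphates available to the lower steps. It had the highest WT ratio of the tested members (1.94, 1.46 and 2.46), above 99.4% of all tested genes. In KO cells the ratio was 1.58, 1.52 and 1.46, within the WT range, and the change of -0.45 was not called (SE 0.24, limma adjusted p = 0.189). It was the only negative change among the 9. Tpi1 nevertheless rose more than any other tested member in the monosome, the low polysome and the mean over fractions, while Hk2 rose more in the high polysome. The monosome level was 56.9, 69.5 and 37.9 CPM in WT and 133, 144 and 133 CPM in KO, and the high polysome level 220, 192 and 210 CPM in WT and 398, 414 and 367 CPM in KO. In the low polysome it was 86.1, 61.4 and 59.7 CPM in WT and 174, 179 and 211 CPM in KO. No WT value reached a KO value in any fraction. The level rose by 1.38 in the monosome (SE 0.18, limma adjusted p = 5.58e-06), by 1.46 in the low polysome (SE 0.16, limma adjusted p = 5.15e-07) and by 0.92 in the high polysome (SE 0.16, limma adjusted p = 7.03e-05).

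Gapdh (chr6:125161853-125166467, minus strand) encodes the dehydrogenase that yields NADH. As counted, it was 2.79, 2.32 and 1.45 CPM in the WT monosome and 4.36, 1.40 and 3.86 CPM in the WT high polysome. In KO it was 2.68, 2.42 and 2.05 CPM in the monosome and 3.45, 3.59 and 3.48 CPM in the high polysome. It passed the filter only through the high polysome libraries. The change in its ratio was 0.13 with an SE of 0.58 (limma adjusted p = 0.898), and the sign turned with DESeq2, edgeR or library size alone, so that no direction can be given. When the counts of its 264 copies were added, the ratio became 0.47, 0.87 and 1.04 in WT and 1.49, 2.05 and 1.44 in KO. All KO gradients then stood above all WT gradients, with a change of 0.86 (SE 0.25, limma adjusted p = 0.0226). The abundance of this sum rose by 0.36 (SE 0.11, limma adjusted p = 0.0104). Whether counts in the copies came from Gapdh mRNA or from transcribed copies was not tested.

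Pgk1 (chrX:106187100-106203699, plus strand) encodes phosphoglycerate kinase, the first step to return ATP. Its ratio was 0.53, 1.48 and 1.03 in WT and 1.08, 2.36 and 0.56 in KO, and the gradients were interleaved. The change of 0.42 carried an SE of 0.57 (limma adjusted p = 0.647), with 5 to 104 counts per library. Without KO gradient 2 the sign turned to -0.19. Pgam1, phosphoglycerate mutase (chr19:41911871-41918664, plus strand), had 0 to 32 counts per library and was not tested with the filter. It was listed at 0 in the monosome library of WT gradient 3, where 3 counts would equal 0.622 CPM. Its high polysome level was 2.44, 2.40 and 3.01 CPM in WT and 1.45, 1.30 and 1.43 CPM in KO, without overlap. Without the filter its difference in that fraction was -0.90 (SE 0.44, limma adjusted p = 0.166). Its translation level was then 2.45 in WT (limma adjusted p = 0.00311) and 1.46 in KO (limma adjusted p = 0.0614).

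Eno1 (chr4:150236952-150248879, plus strand) encodes enolase, which dehydrates phosphoglycerate to phosphoenolpyruvate. Its ratio was 0.58, 1.05 and 1.09 in WT and 1.97, 2.11 and 0.20 in KO, so that KO gradient 3 stood below every WT gradient while the other 2 KO gradients stood above. The change of 0.50 had an SE of 0.65 (limma adjusted p = 0.623). In the high polysome KO gradient 3 held 43.5 CPM, against 104 and 117 CPM in KO gradients 1 and 2 and 58.8 to 69.1 CPM in WT. In the low polysome Eno1 was 3.68 CPM (29 counts) in WT gradient 3 and 4.91 CPM (36 counts) in KO gradient 2, against 18.4 to 25.3 CPM in the other 4 libraries. Those 2 are the low polysome libraries that stood apart. The share of Eno1 windows found in Eno1b was 90.0%, and its part in this spread was not tested.

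Pkm (chr9:59656368-59679375, plus strand) encodes the muscle-type pyruvate kinase, the last step, which makes pyruvate and ATP. Its ratio was 0.49, 0.31 and 0.59 in WT and 1.03, 1.57 and 1.84 in KO, without overlap. The change was 1.02 (SE 0.23, limma adjusted p = 0.00525), or 2.03-fold. Both ends of the gradient moved. The monosome level was 356, 326 and 312 CPM in WT and 243, 211 and 197 CPM in KO, and it fell by 0.61 on the log2 scale (SE 0.16, limma adjusted p = 0.0058). The high polysome level was 499.8, 403 and 470 CPM in WT and 497, 627 and 707 CPM in KO. It rose by 0.41 (SE 0.16, limma adjusted p = 0.0434), although KO gradient 1 lay within the WT range, and the call was lost when any gradient but KO gradient 1 was left out, with library size alone and with DESeq2 (adjusted p = 0.0517 to 0.248). The low polysome level was 268, 214 and 274 CPM in WT and 197, 318 and 259 CPM in KO, with a difference of 0.02 (limma adjusted p = 0.942). Without KO gradient 3 the change in ratio was 0.82 and was not called (limma adjusted p = 0.0657).

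Both knockout clones were compared with the WT mean. In KO gradient 1, the only one from its clone, the ratio stood above the WT mean by 0.63 for Hk2, 0.77 for Gpi1, 0.46 for Pfkl and 0.57 for Pkm. In KO gradients 2 and 3, from the other clone, it stood above by 1.28 and 1.02 for Hk2, 1.34 and 1.72 for Gpi1, 1.23 and 1.12 for Pfkl, and 1.11 and 1.38 for Pkm. The direction was shared by all 3 gradients for these 4 genes. They had been called on the same gradients, so that this agreement is no separate support. Of the members not called, Aldoa stood above the WT mean in all 3 KO gradients and Tpi1 and Pgam1 below it. Gapdh, Pgk1 and Eno1 stood above in some and below in others. With 1 gradient in a clone the difference between clones could not be tested, and gradient 1 also retained the most Ddx6 mRNA.

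The change in translation level followed coding length over all genes. Its median was -0.40 for genes of at most 1000 coding nucleotides (3858 genes) and -0.03, 0.23, 0.41 and 0.57 in the bins up to 1500, 2000, 3000 and above. The share of genes called higher was 1.58% in the shortest bin and 28.0% in the longest. Hk2 (2754 nt) and Pfkl (2343 nt) are the longest members, and Tpi1 (900 nt) lies in the shortest bin, near its median. Gpi1 (1677 nt) and Pkm (1596 nt) stood above the upper quartile of their bin, 0.60. With the trend removed, Gpi1 kept a change of 1.08 (SE 0.29, limma adjusted p = 0.0302) and Pkm one of 0.85 (SE 0.23, limma adjusted p = 0.0336). Hk2 then had 0.54 (limma adjusted p = 0.0954) and Pfkl 0.57 (limma adjusted p = 0.302), and neither was called. Aldoa (1095 nt) had 0.78 (limma adjusted p = 0.0662).

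**Figure D4:**
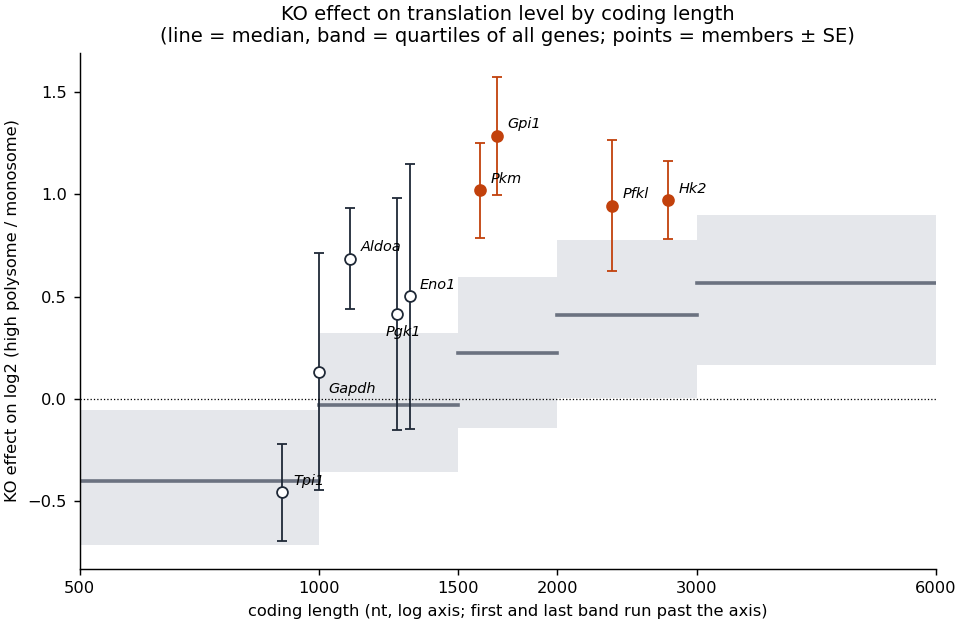
Each member's change in log2 high polysome to monosome ratio (KO against WT, ± SE) is drawn against its coding length (log axis), with filled points for calls, over the median (line) and quartiles (band) of all genes in 5 length bins. The 4 called members, at 0.95 to 1.29, lie above the quartile band of their bins, whose medians are 0.23 and 0.41, and Tpi1 lies close to the median of -0.40.

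The low polysome to monosome ratio was changed for 2 of 9 members, Gpi1 (1.04, SE 0.29, limma adjusted p = 0.0438) and Aldoa (0.96, SE 0.25, limma adjusted p = 0.0332), where 2.31% of all genes were called higher and 2.39% lower. All 9 changes were positive, with a median of 0.63 against 0.02 over all genes. This ratio uses the same monosome libraries as the translation level, so that its changes are not independent of those above. For Gpi1 and Aldoa the low polysome level differed by 0.17 and -0.10, neither called, and the monosome level by -0.87 and -1.06. For Gpi1 the ratio was -0.23, -0.76 and -0.18 in WT and 0.17, 1.15 and 0.63 in KO. For Aldoa it was -0.36, -1.02 and -0.34 in WT and -0.12, 0.74 and 0.54 in KO. Neither gene's gradients overlapped, a separation upwards shared with Pfkl (3 of the 9 tested members) and found for 12.8% of all genes, with 12% separated downwards. Both calls were lost without WT gradient 1, WT gradient 2, KO gradient 2 or KO gradient 3, and that of Gpi1 also without WT gradient 3. Without the 2 low polysome libraries that stood apart, Gpi1 was not called (0.90, limma adjusted p = 0.0552) and Aldoa was still called. Neither was called when all genes were fitted (limma adjusted p = 0.0867 and 0.0586). The same held once the trend of this change on coding length was removed. Gpi1 then had 0.86 and Aldoa 0.88 (limma adjusted p = 0.140 and 0.0880).

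The level of each mRNA was then compared between genotypes. In bulk samples fewer cells of a type and less RNA per cell cannot be told apart, and each library gives shares of its own fraction. In the monosome 1 member was higher (Tpi1) and 3 were lower (Gpi1, Aldoa and Pkm), where 18.6% of all genes were higher and 20.1% lower. In the low polysome 2 were higher (Hk2 and Tpi1) against 23.4% of all genes, and none was lower, against 24.3%. In the high polysome 3 were higher (Hk2, Tpi1 and Pkm) against 25.3%, and none was lower, against 21.1%. The median difference of the 9 members was -0.51 for the monosome (-0.03 over all genes), 0.37 for the low polysome (-0.03) and 0.41 for the high polysome (-0.01). All 3 comparisons use separate libraries of the same 6 gradients.

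Abundance, taken as the mean log2 CPM over the 3 fractions of a gradient, was higher for Tpi1 and Hk2 and lower for Aldoa, where 28.5% of all genes were called in each direction. No total RNA entered this value. Tpi1 was 6.69, 6.56 and 6.30 in WT and 7.71, 7.79 and 7.77 in KO, a rise of 1.24 (SE 0.10, limma adjusted p = 4.86e-07), or 2.37-fold. Hk2 was 7.50, 7.37 and 7.45 in WT and 8.22, 8.19 and 8.03 in KO, a rise of 0.71 (SE 0.09, limma adjusted p = 1.57e-05). Aldoa was 9.43, 9.23 and 9.23 in WT and 8.64, 8.96 and 8.77 in KO, so that it fell by 0.51 (SE 0.10, limma adjusted p = 0.000695). None of these 3 sets overlapped between genotypes. All gradients stood apart upwards for 31.6% of all genes and downwards for 31.3%. The other 6 tested members differed by -0.27 (Pgk1) to 0.34 (Gapdh), and none was called. The 3 calls held in each fit that left out 1 gradient, with ranges of 1.13 to 1.31 for Tpi1, 0.66 to 0.75 for Hk2 and -0.59 to -0.43 for Aldoa.

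**Figure D5:**
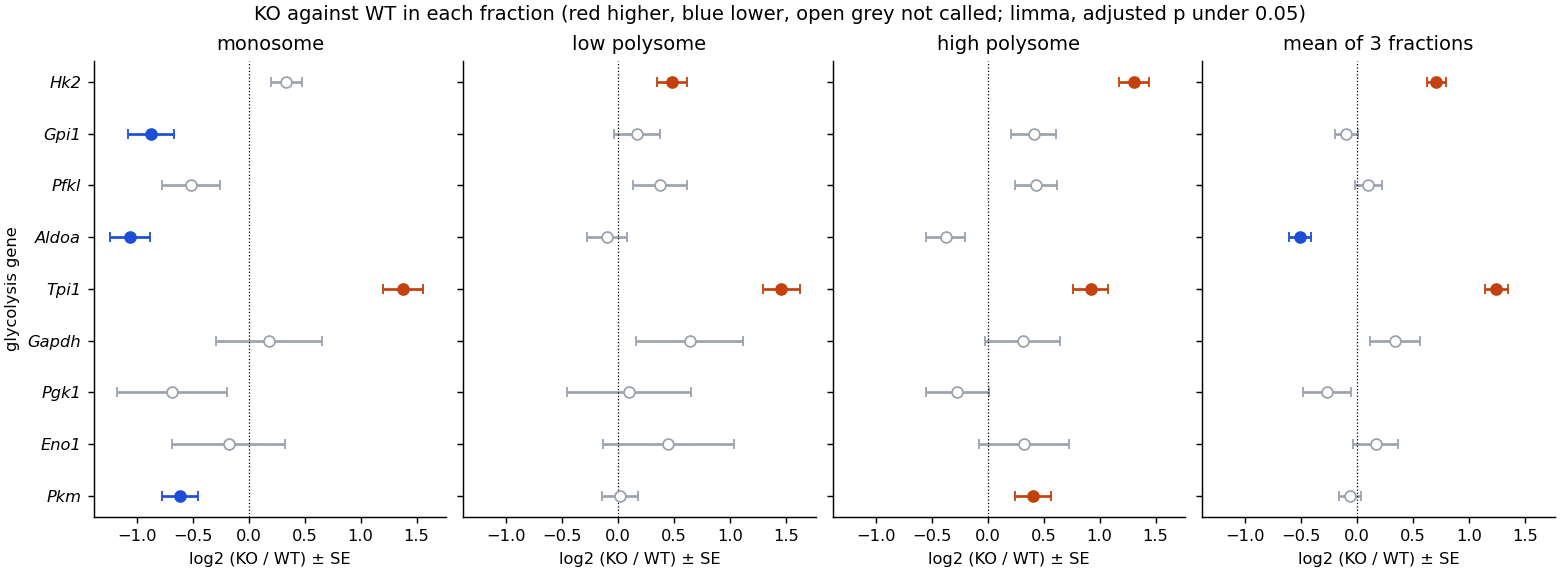
The log2 difference between KO and WT (± SE) is given for the 9 tested members in each fraction and in the mean of the 3 fractions, with red for higher, blue for lower and open grey for not called. Tpi1 is higher in all 4 plots (0.92 to 1.46), and the members to the left in the monosome lie nearer to 0 or to the right in the high polysome.

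Hk2 was the only member called higher in both abundance and translation level, and its promoter is shown for this reason. The 250 bases before its start in RefSeq (GRCm38.p6, minus strand, chr6:82774455-82774704) follow, with matches to ACGTG on either strand in capitals. These letters are the core of the element bound by hypoxia-inducible factors, which are known regulators of glycolytic genes.
Hk2: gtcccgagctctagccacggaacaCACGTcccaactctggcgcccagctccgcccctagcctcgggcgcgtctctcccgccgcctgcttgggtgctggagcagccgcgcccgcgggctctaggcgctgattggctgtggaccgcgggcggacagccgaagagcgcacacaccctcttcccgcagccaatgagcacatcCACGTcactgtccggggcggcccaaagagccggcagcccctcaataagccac
Both matches lay on the opposite strand. Over all 32851 promoter windows of this length, 16.6% held at least 1 match and 6.81% held 2 or more. The members had 15 windows, since some have several starts, and 6 of these held a match. Overlapping windows of Aldoa held the same site, which is counted in each. The windows with a match belonged to 5 of the 10 genes (Hk2, Aldoa, Pgk1, Pgam1 and Pkm), and the Tpi1 window held none. In abundance Hk2 and Tpi1 were called higher and Aldoa lower, Pgk1 and Pkm were not called, and Pgam1 did not pass the filter. Whether these sites bear on any level or ratio was not tested. A gene with several windows has more chances of a match, so that the count of genes cannot be set against the share of windows. The GC content of the Hk2 window was 69.6%, against a median of 52.4%.

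The isoenzymes of the same 10 steps gave 9 tested genes of 17. In the KO effect on the translation level 3 were higher (Hk1, Eno3 and Pfkp) and 1 was lower (Bpgm), with a median of 0.70, where 10.7% of all genes were called higher and 7.09% lower. Hk1, the other widely expressed hexokinase, changed by 1.46 (SE 0.29, limma adjusted p = 0.00273), beside 0.97 for Hk2. It stood at 47.3 ± 2.5 CPM in the WT high polysome and 89.5 ± 17 CPM in the KO high polysome (SD, n = 3). Pfkp, the platelet-type phosphofructokinase, changed by 1.04 in ratio (SE 0.25, limma adjusted p = 0.00835) while its abundance fell by 1.47 (SE 0.11, limma adjusted p = 1.63e-07). In the WT low polysome it was 193 ± 46 CPM, and in the KO low polysome 41.4 ± 8.1 CPM. Pfkl, in the same fraction, was 15.7 ± 2.2 and 21.2 ± 7.1 CPM. Eno3, the muscle enolase, rose in abundance by 1.16 (SE 0.11, limma adjusted p = 1.94e-06), and Eno1 differed by 0.17 (SE 0.20, limma adjusted p = 0.497). Over the 3 fractions 4 isoenzymes rose (Eno3, Bpgm, Pgam2 and Eno2) and 2 fell (Pfkp and Pfkm), against 28.5% of all genes in each direction.

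Glucose entry and lactate export were represented by 12 genes, of which 10 were tested. Over the 3 fractions 7 rose and 1 fell, against 28.5% of all genes in each direction. Slc2a3 was 1410 to 1716 CPM in the WT high polysome and 6608 to 8566 CPM in the KO high polysome, and its abundance rose by 1.76 (SE 0.09, limma adjusted p = 1.41e-08). Slc2a1 rose by 1.04 (SE 0.09, limma adjusted p = 6.7e-07). These 2 were also the genes of the list with a higher translation level (1.15 and 0.90, limma adjusted p = 0.000674 and 0.00467). Ldhb, a lactate dehydrogenase subunit, fell by 1.11 in abundance (SE 0.10, limma adjusted p = 1.55e-06). Ldha, the other main subunit, was 425 ± 37 CPM in the WT and 448 ± 38 CPM in the KO high polysome.

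The next counts stand beside the same shares of all genes, 28.5% in each direction for abundance and, for the translation level, 10.7% higher and 7.09% lower. Of 11 tested regulators of glycolytic flux, 6 rose in abundance (Tigar, Pdk4, Pfkfb3, Pfkfb1, Pfkfb4 and Arnt) and 1 fell (Epas1), with a median of 0.38. Only Epas1 was called for the translation level (0.86, SE 0.22, limma adjusted p = 0.0107). Of 8 genes for pyruvate entry into mitochondria, 2 rose and 1 fell in abundance, and in translation level Pdha1 rose (0.88, limma adjusted p = 0.00455) and Mpc2 fell. Of 7 pentose phosphate genes, 4 rose and 1 fell in abundance. Pgd rose by 1.51 (SE 0.11, limma adjusted p = 1.99e-07), and its translation level by 1.29 (SE 0.24, limma adjusted p = 0.0015). Of 3 tested genes of gluconeogenesis, the opposite route, G6pc3 rose in abundance by 0.95 while Fbp2 and Pck2 fell by 2.57 and 0.52. Pck2 had the largest change in translation level among the genes called in these lists (1.81, SE 0.26, limma adjusted p = 0.000217). Of 16 citric acid cycle genes, 7 rose and 1 fell in abundance, and in translation level 4 rose and 2 fell (Idh3a and Sdhc). Among those that rose were Cs, citrate synthase (1.55, SE 0.20, limma adjusted p = 9.87e-05), and Ogdh, a subunit of the oxoglutarate dehydrogenase complex (1.38, SE 0.26, limma adjusted p = 0.00181). The median change in translation level was 0.74 for gluconeogenesis (3 genes), 0.70 for the isoenzymes, 0.39 for transport and lactate dehydrogenase, 0.12 for the cycle, 0.11 for the pentose phosphate genes, -0.01 for the regulators and -0.08 for pyruvate entry, beside 0.69 for the 9 glycolysis members and 0.02 over all genes.

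The profile of the members over the 18 libraries was summarised as the mean of their log2 CPM, each centred on its own mean. Pfkl (r = 0.95) and Pkm (r = 0.89) lay closest to this mean and Gpi1 (r = 0.42) and Hk2 (r = 0.57) farthest from it, each being part of it. Outside the list, Dpp3 (r = 0.97), Aldh9a1 (r = 0.97), Aldh7a1 (r = 0.96), Asns (r = 0.96) and Smu1 (r = 0.96) had the most similar profiles. The 18 points share 3 fractions and 6 gradients, and any mRNA enriched in the high polysome of both genotypes gains in this measure.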

How the data were processed

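Polysome profiling libraries of WT and Ddx6 KO mouse ESCs (18 libraries, 6 groups of 3) were analysed. The authors trimmed reads with cutadapt 1.14, aligned them to mm10 with STAR 2.5.3a, discarding reads with more than 1 alignment, and deposited counts per gene from featureCounts 1.5.3 with the Gencode M14 annotation and rRNA annotations removed. Of 51467 gene identifiers, 51274 matched Gencode M21 (GRCm38, the same assembly), which gave symbols, coding lengths and transcripts. The 92 spike-in sequences (28 to 169 counts per library) were left out.

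Genes with at least 3 CPM, here relative to the unscaled library total, in at least 3 libraries were kept (12705). Counts were scaled by TMM (edgeR 4.0.16) and fitted with limma 3.58.1 (R 4.3.3, voom weights) to 6 group means, and KO effects on ratios were interaction terms. Abundance was tested with limma on the mean log2 CPM (prior count 2) of the 3 fractions of each gradient. Tests were two-sided, with Benjamini-Hochberg adjustment over all genes and a threshold of 0.05. All differences are relative to this scaling. Per-gradient ratios used CPM with 0.5 added. Library totals of 2543617 to 11474550 counts set the precision, which covers counting error and the spread of 3 gradients.

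Copies were transcripts of other genes found with blastn 2.17.0+ at 85% identity or more over at least 200 bases and 50% of the copy, and 50-base windows were matched exactly. The fits were tested on simulated counts of independent libraries, with changes in the KO high polysome only. That setting had no gradients, clones or libraries that stand apart, so that it cannot judge the calls made here. Alternatives were library size alone, DESeq2 1.42.0, edgeR's quasi-likelihood test, no filter, the compared groups alone (for abundance, a joint fit to the 18 libraries), copies' counts added, a replicate block, removal of the trend on coding length, and each gradient left out. The fractions of 1 number come from 1 gradient, which pairs them, although their deviations from the group means correlated weakly (r of -0.17 to 0.46, median 0.09).

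All 10 members, Ddx6, up to 4 called genes per list and comparison with the smallest adjusted p (beyond these, genes were named to account for a small count after their values were seen), the isoenzymes compared with a member, 1 copy per member and 5 genes of like profile were named. The members and gene lists were chosen with earlier results of these data known. Of the genes this rule takes, 1 is not reported here.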

Additional observations from a re-analysis of the deposited data

Results flagged for a closer look

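The change in the ratio of high polysome to monosome differed between genotypes by the interaction test for 4 of the glycolysis genes. Over all genes 10.7% were called higher and 7.09% lower. The values were 0.97 for Hk2, 1.29 for Gpi1, 0.95 for Pfkl and 1.02 for Pkm, all higher in KO. For the low polysome to monosome ratio, which uses the same monosome libraries, 2.31% of all genes were called higher and 2.39% lower. This ratio differed in the same way for Gpi1 (1.04) and Aldoa (0.96). Both of these calls were lost with the trend on coding length removed (limma adjusted p = 0.140 and 0.0880). Coding length also moved with the change in high polysome to monosome ratio. The median of that change was -0.40 for genes of at most 1000 coding nucleotides and 0.57 for those above 3000. Spike-in sequences, which no comparison used, had 169 counts in the low polysome library of WT gradient 3, the most of the 18 libraries, where the fewest were 28.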

How the results depend on the processing

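Of 72 results for members, 31 were called, and none of these changed direction under the alternatives run. Of 990 values under the alternatives, 901 kept their direction and their side of the threshold, 38 lost a call, 28 gained one and 23 changed sign, all in results that were not called. The number of members with a changed translation level was 4, where 10.7% of all genes were called higher and 7.09% lower. That number became 2 after removal of the coding length trend and 1 to 5 over the gradients left out (1 without KO gradient 3). The number with a changed low polysome to monosome ratio was 2, where 2.31% of all genes were called higher and 2.39% lower. It was 0 without the filter, 0 with the trend removed and 1 without the low polysome libraries that stood apart. Over the gradients left out it was 0 to 3. The number called in the WT translation level was 5, and 2 to 6 over the gradients left out. There 28.9% of all genes were called higher and 32.2% lower. Counts in the other 5 comparisons stayed within 1.5 times their value. With library size alone the median change in translation level over all genes was -0.10 in place of 0.02.

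Changes of sign were as follows. For Gapdh the change in translation level was -0.00033 with library size alone, -0.094 with DESeq2, -0.044 with edgeR and -0.49 to 0.69 over the gradients left out, its WT translation level was -0.16 to 1.03, its high polysome difference -0.22 to 0.56, and its monosome difference -0.13 to 0.34 and, with the copies added, -0.23. Over the gradients left out, the change in translation level of Pgk1 was -0.19 to 0.85, and the change in low polysome to monosome ratio was -0.22 to 0.26 for Tpi1 and -0.12 to 1.24 for Eno1. The low polysome difference was -0.020 to 0.27 for Gpi1, -0.30 to 0.094 for Aldoa, -0.44 to 0.50 for Pgk1, -0.35 to 1.14 for Eno1 and -0.14 to 0.20 for Pkm, for which it was -0.080 without the libraries that stood apart. The abundance difference was -0.0014 to 0.17 for Pfkl, -0.088 to 0.36 for Eno1 and -0.14 to 0.020 for Pkm. The cause was not tested.

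With the replicate block the change in translation level was called for 5 members in place of 4, Aldoa being added. Across genotypes the samples shared only a number (r of deviations -0.48 to 0.24, median 0.04), and with that number as the block the high polysome difference of Pkm was not called (0.41, limma adjusted p = 0.0520); it changed no other call of a member. Gapdh, Pgk1 and Pgam1 had at most 104 counts in a library, and the part of depth in their errors was not tested. Eno1, with 29 to 1076 counts, had an SE of 0.65 for the change in translation level.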
